A study of Mus musculus with 16 samples.

Results

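The 10 genes that carry the hormone axis of the granulosa cell were followed across the 16 libraries of the series. They encode the enzymes and carriers of ovarian steroid synthesis (Star, Cyp11a1, Fdx1, Hsd3b1, Cyp17a1, Hsd17b1 and Cyp19a1) and the receptors through which the pituitary drives it (Fshr, Lhcgr and Prlr). The genes were taken by symbol from the count tables, where each of the 10 symbols matched 1 of the 57010 genes, and no expression value entered this matching. The 10 genes themselves were chosen with earlier results of these data known. All animals were female ICR mice, operated on at 6 weeks of age. In the EM group endometrium of donor mice had been stitched onto the serosa of the bowel mesentery, and the Con group had a sham operation. Recipients received 200 µg/kg of 17β-estradiol every other day for 14 days, and after a washout ovulation was induced at day 30 with PMSG or HCG. The methods do not say which hormone preceded these libraries, nor whether the Con mice also received estradiol. Freshly isolated mouse granulosa cells (mGCs) of 5 Con mice (Con-mGC) and 5 EM mice (EM-mGC) gave 1 library per mouse. Cells of 6 other EM mice were first grown for 24 h in DMEM/F12 that held 5% FBS and then received 100 nM 14,15-EET (EET, 3 libraries) or the same volume of PBS (PBS, 3 libraries) for another 24 h, so that a cultured library cannot be traced to 1 mouse. The methods describe these as 3 paired replicates and do not say which EET and PBS libraries form a pair. 14,15-EET is a lipid mediator, an epoxide of arachidonic acid formed by cytochrome P450 enzymes. Every cultured library thus came from EM mice, and the series has no cultured cells of Con mice.

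Follicle-stimulating hormone acts on granulosa cells through the receptor encoded by Fshr, and luteinizing hormone through the one encoded by Lhcgr, which granulosa cells acquire late in follicle growth. Both receptors raise cyclic AMP, and cyclic AMP drives the genes of steroid synthesis. Star carries cholesterol into the mitochondrion. Cyp11a1, fed with electrons by the ferredoxin Fdx1, cleaves its side chain to pregnenolone, and Hsd3b1 turns pregnenolone into progesterone. Cyp17a1 makes androgens and is mainly an enzyme of the theca cells, the outer layer of the follicle. Aromatase, encoded by Cyp19a1, converts androgens to estrogens in the granulosa cell, and Hsd17b1 reduces estrone to estradiol. After ovulation granulosa cells luteinize and turn to progesterone, and prolactin, acting on Prlr, sustains the rodent corpus luteum.

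The positions below are those of the count tables, whose build the submitters' processing notes name as GRCm39. Star (ENSMUSG00000031574) lies on the plus strand of chromosome 8 from 26296583 to 26306010, and Cyp11a1 (ENSMUSG00000032323) on the plus strand of chromosome 9 from 57913694 to 57934306. Chromosome 9 also carries Fdx1 (ENSMUSG00000032051, 51854606 to 51874856) and Cyp19a1 (ENSMUSG00000032274, 54073221 to 54175394), both on the minus strand. Hsd3b1 (ENSMUSG00000027871) lies on the minus strand of chromosome 3 from 98759510 to 98767110, Hsd17b1 (ENSMUSG00000019301) on the plus strand of chromosome 11 from 100969237 to 100971353, and Cyp17a1 (ENSMUSG00000003555) on the minus strand of chromosome 19 from 46655604 to 46661611. The gonadotropin receptors are neighbours on the minus strand of chromosome 17, Lhcgr (ENSMUSG00000024107) from 89023909 to 89099418 and Fshr (ENSMUSG00000032937) from 89292380 to 89508103. Prlr (ENSMUSG00000005268) lies on the plus strand of chromosome 15 from 10177324 to 10349266. All 10 are protein-coding. Of the 10, 2 overlap another counted gene. Gm17322 lies within the span of Cyp11a1 and held at most 1184 counts against 1739669 for Cyp11a1 over all libraries, and Gm21973, which overlaps Prlr, held 0. No other gene's transcript shared a stretch of 100 bases with the remaining 9 genes, and for Prlr 1.06% of such stretches were shared, with Gm21973 alone. The paralogs of Hsd3b1 were close to silent, the highest group mean among Hsd3b2, Hsd3b3, Hsd3b6 and Hsd3b7 being a scaled count (CPM, defined below) of 0.288 for Hsd3b6 in EM-mGC.

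Promoters of 7 of the 10 genes, all but Star, Hsd17b1 and Cyp17a1, were taken from RefSeq (build GRCm38.p6), with 12 transcription starts between them. The 250 bases before the start are shown for the 3 receptors, whose levels parted widely between fresh and cultured cells, and for Hsd3b1. Per kilobase of all its annotated exons, a length on which the order depends, Hsd3b1 was the most abundant of the 10 genes in both. Motifs found on either strand are in capitals.
Fshr, chr17:89200676-89200925, minus strand: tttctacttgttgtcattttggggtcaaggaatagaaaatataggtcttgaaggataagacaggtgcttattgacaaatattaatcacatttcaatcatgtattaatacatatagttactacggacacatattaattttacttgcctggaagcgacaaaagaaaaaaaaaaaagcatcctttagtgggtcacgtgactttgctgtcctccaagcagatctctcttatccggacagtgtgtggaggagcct
Lhcgr, chr17:88792015-88792264, minus strand: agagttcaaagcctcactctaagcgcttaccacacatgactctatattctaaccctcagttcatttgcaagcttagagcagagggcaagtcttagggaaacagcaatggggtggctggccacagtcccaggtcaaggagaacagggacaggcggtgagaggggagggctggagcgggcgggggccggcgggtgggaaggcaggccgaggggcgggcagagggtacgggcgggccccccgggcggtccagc
Prlr, second start, chr15:10223656-10223905, plus strand: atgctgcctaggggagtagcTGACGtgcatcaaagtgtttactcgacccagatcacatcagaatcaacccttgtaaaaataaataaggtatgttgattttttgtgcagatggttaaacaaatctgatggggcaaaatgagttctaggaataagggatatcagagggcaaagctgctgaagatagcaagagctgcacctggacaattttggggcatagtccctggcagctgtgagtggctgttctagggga
Hsd3b1, chr3:98859795-98860044, minus strand: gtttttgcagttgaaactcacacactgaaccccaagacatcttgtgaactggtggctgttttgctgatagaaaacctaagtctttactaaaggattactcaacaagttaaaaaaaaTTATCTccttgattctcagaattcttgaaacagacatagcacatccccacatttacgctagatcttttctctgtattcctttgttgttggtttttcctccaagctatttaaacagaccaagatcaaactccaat
The motifs searched were AAGGTCA, the binding letters of the Nr5a receptors, AGATAA, those of GATA factors, and TGACG, the core of the cyclic AMP response element, and none overlaps another. AAGGTCA was in none of the 12 promoters (0, against 4.08% of the 32851 promoters of the table), AGATAA in 1 (9.99% of all) and TGACG in 2 (17.8% of all). The capitals in Hsd3b1 are AGATAA read on the other strand, beginning 134 bases before the start, and those in Prlr are TGACG on the gene's strand, 230 bases before it. The other TGACG lay on the other strand of the upstream start of Cyp11a1, 50 bases before it. These letters were absent from the printed windows of Fshr and Lhcgr. For Prlr the window printed is that of the start with a motif, and the windows of its other starts held none.

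Fresh libraries held 14229123 to 15999234 counts each and cultured libraries 21384686 to 29482826. Levels are given as CPM, the read count of a gene scaled to a common library total after TMM scaling over all 16 libraries. The cells carried granulosa markers in every library, with the summed level of 10 such genes between 7612 and 25440 CPM. Fresh libraries also held transcripts of other ovarian cells, for which the summed levels were 158 to 364 CPM for 6 theca markers, 167 to 616 CPM for 7 leukocyte markers, 419 to 1212 CPM for 5 stromal markers and 78.9 to 644.8 CPM for 5 oocyte markers. The 3 red blood cell markers summed to 3202 to 4980 CPM in Con-mGC and to 2230 to 14550 CPM in EM-mGC, with the highest sum in EM-mGC-3. The share of mitochondrial transcripts was 21.9% in EM-mGC-3 and ran from 6.76% to 11.1% over the rest of the fresh libraries.

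The 10 genes took between 1.40% and 1.93% of all counts in the fresh libraries and between 0.744% and 0.787% in the cultured ones. Genes were compared per kilobase of exon, with all annotated exons of a gene joined (4804 bases for Cyp11a1 and 1855 for Hsd3b1). The longest coding transcript of Cyp11a1 is shorter, with 2021 stretches of 100 bases. The order of these 2 genes, and of genes close in level, thus depends on the length used. On this scale Hsd3b1 stood first in Con-mGC with a level of 2663 ± 373 CPM per kb (SD, n = 5), followed by Cyp11a1 at 1253 ± 213 and Hsd17b1 at 382 ± 57.3 CPM per kb. The ranges of these 3 enzymes did not overlap those of their neighbours in the order. Below them Star (160 ± 46.5 CPM per kb), Fdx1 (139.5 ± 38.7), Lhcgr (98.9 ± 21.6), Cyp17a1 (65.2 ± 15.1) and Cyp19a1 (51.3 ± 8.49) each overlapped the next gene in the order, which after Cyp19a1 was Fshr (45.2 ± 3.77). Prlr was lowest at 24.8 ± 6.99 CPM per kb, apart from Fshr. The machinery of progesterone synthesis was thus far more abundant than aromatase, and the LH receptor more abundant than the FSH receptor. In EM-mGC the order was the same except that Fdx1 (208 ± 82.5 CPM per kb) stood above Star (128 ± 64.3), with overlapping ranges.

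**Figure D1:**
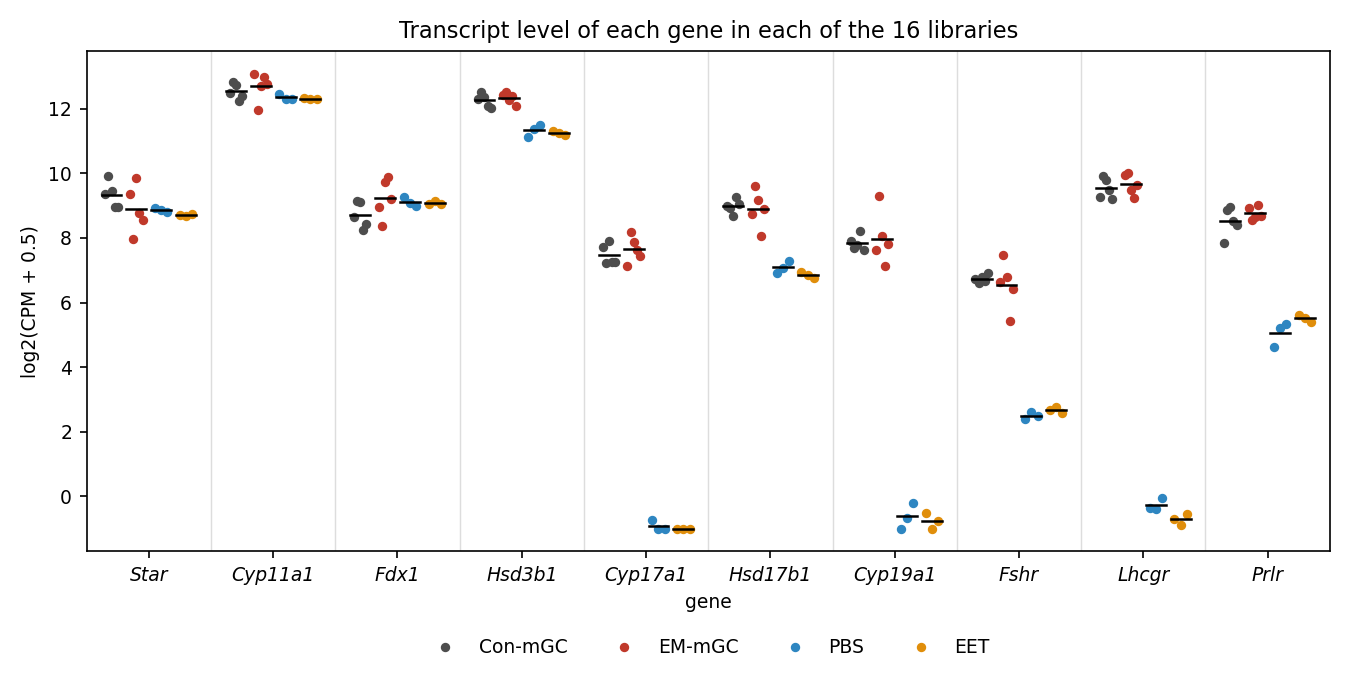
Level of each gene in each library, as log2(CPM + 0.5) on the vertical axis, with 1 point per library and a black line at the mean of Con-mGC (n = 5), EM-mGC (n = 5), PBS (n = 3) and EET (n = 3). Star, Cyp11a1 and Fdx1 lay at similar heights in all 4 groups, whereas Cyp17a1, Cyp19a1 and Lhcgr fell from at least 138.6 CPM in every fresh library to at most 0.458 CPM in every cultured one.

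The first comparison asks how the granulosa cells of EM mice differed from those of Con mice. None of the 10 genes was called at an adjusted p under 0.05 (quasi-likelihood test of edgeR, adjusted after Benjamini and Hochberg over 17229 genes), and the same holds for the whole table, where 0% of genes were called. At an unadjusted p under 0.05 the edgeR count was 0 of the 10 genes, against 9.44% of all genes tested. DESeq2 called 113 genes and limma-voom 224 over the whole table, with 0 of the 10 among them by either tool. The EM mean was higher for 7 genes and lower for 3, with a median log2 fold change of 0.15 against -0.01 over all genes tested. For all 10 genes the ranges of the 5 EM and the 5 Con mice overlapped, and 1.73% of all genes had ranges that did not.

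Star, the cholesterol carrier, was at 655, 961, 693, 496 and 492 CPM in Con-mGC-1 to Con-mGC-5 and at 654, 250.4, 923, 436 and 377 CPM in EM-mGC-1 to EM-mGC-5. The lowest 3 of the 10 values were EM mice, and EM-mGC-3 lay near the highest Con mouse. The log2 fold change of Star in EM-mGC against Con-mGC was -0.33 (standard error 0.31, 95% interval -1.01 to 0.35, edgeR adjusted p = 0.75). Cyp11a1, the side-chain cleavage enzyme, averaged 6018 ± 1021 CPM (SD, n = 5) in Con-mGC and 6863 ± 1839 CPM (SD, n = 5) in EM-mGC. Its log2 fold change was 0.18 (standard error 0.23, edgeR adjusted p = 0.814).

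Fdx1, its electron donor, had the largest difference of the 10 genes. It was at 401, 564, 553, 300.1 and 347 CPM in Con-mGC-1 to Con-mGC-5 and at 499.7, 332, 853, 955 and 584 CPM in EM-mGC-1 to EM-mGC-5. In 3 EM mice it stood above every Con mouse, and in EM-mGC-2 it lay among the lowest values. The log2 fold change of Fdx1 was 0.57 (standard error 0.28, 95% interval -0.03 to 1.17, edgeR unadjusted p = 0.0614, adjusted p = 0.54). Hsd3b1, which makes progesterone, was at 4940 ± 693 CPM in Con-mGC and 5213 ± 595 CPM in EM-mGC (SD, n = 5 each, log2 fold change 0.07, edgeR adjusted p = 0.906).

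**Figure D2:**
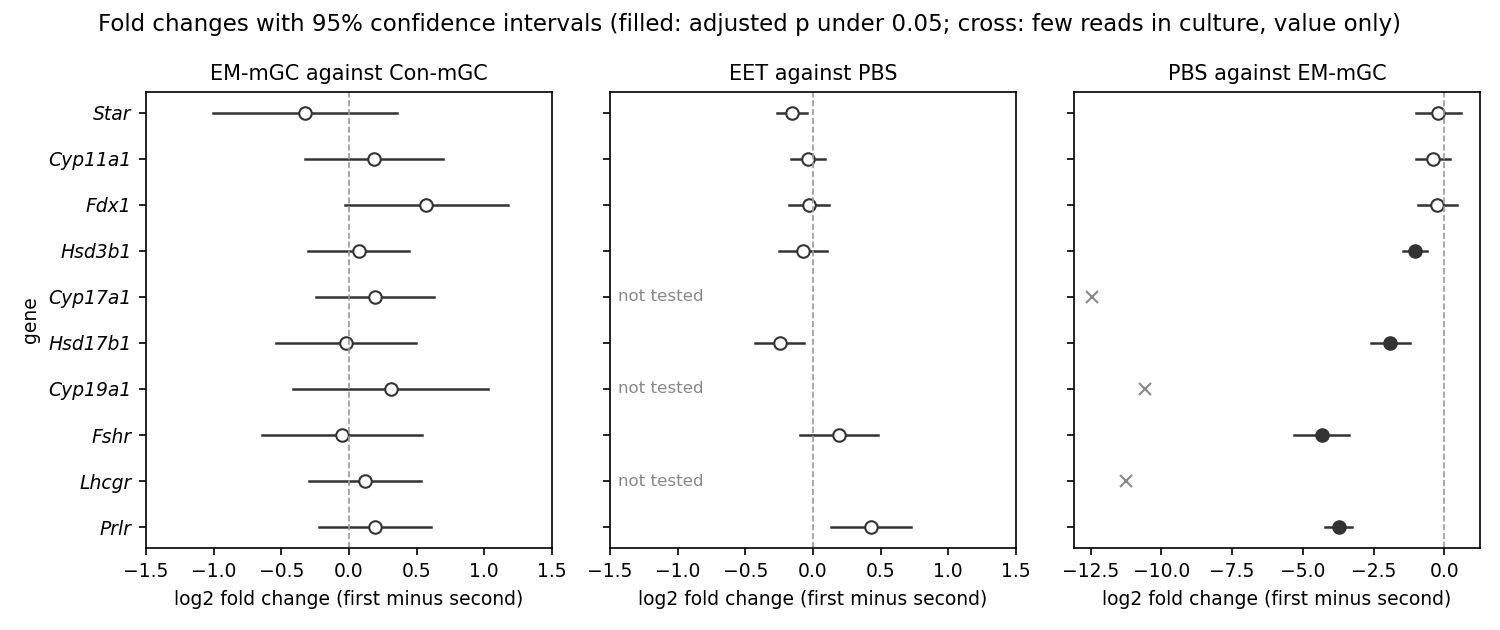
Log2 fold change of each gene (horizontal axis) with its 95% interval in EM-mGC against Con-mGC, EET against PBS and PBS against EM-mGC, each from edgeR; filled points have an adjusted p under 0.05, and crosses are fitted values, with no test, of genes with almost no reads in culture. No point is filled in the first and second panels, and the third panel, on a wider axis, shows Star, Cyp11a1 and Fdx1 near 0 and the crosses of Cyp17a1, Lhcgr and Cyp19a1 below -10.

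Among the estrogen enzymes, Cyp19a1 was at 241, 207, 221, 294 and 197 CPM in Con-mGC-1 to Con-mGC-5 and at 195, 623, 265, 139.5 and 222 CPM in EM-mGC-1 to EM-mGC-5. A single EM mouse, EM-mGC-2, stood far above all other mice, and EM-mGC-4 below all of them. The fitted log2 fold change of Cyp19a1 in the EM group was 0.31 (standard error 0.33, edgeR adjusted p = 0.778), and it was -0.18 without EM-mGC-2. Hsd17b1 was at 512, 484, 408, 619 and 531 CPM in the Con mice and at 426, 785.5, 582, 264 and 478 CPM in the EM mice, in replicate order. The highest and the lowest value again came from EM-mGC-2 and EM-mGC-4. Its log2 fold change was -0.02 (standard error 0.24, edgeR adjusted p = 0.983) and turned to 0.14 without EM-mGC-4. Cyp17a1, the androgen enzyme, was at 180.5 ± 41.9 CPM in Con-mGC and 207 ± 58.1 CPM in EM-mGC (SD, n = 5 each, log2 fold change 0.19, edgeR adjusted p = 0.771), and EM-mGC-2 was highest at 289 CPM. Insl3, a hormone made by theca cells, was at 2.12 CPM in Con-mGC and 3.36 CPM in EM-mGC on average. It was the 1 theca marker of 6 with a higher EM mean; the median log2 fold change of the 6 was -0.38, and 0 were called by edgeR, with 2 at an unadjusted p under 0.05 (Nr2f2 and Gli1, both lower).

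Of the receptors, Fshr was at 106, 96.8, 110, 101 and 120 CPM in Con-mGC-1 to Con-mGC-5, a narrow range, and at 98.3, 178, 111, 42.4 and 85.2 CPM in EM-mGC-1 to EM-mGC-5. The Con mice lay within the EM range, whose ends were once more EM-mGC-2 and EM-mGC-4. The log2 fold change of Fshr was -0.05 (standard error 0.27, edgeR adjusted p = 0.959), and 0.14 without EM-mGC-4. Lhcgr averaged 756 ± 165 CPM in Con-mGC and 825 ± 184 CPM in EM-mGC (log2 fold change 0.12, edgeR adjusted p = 0.854). Prlr averaged 380.4 ± 107 CPM and 437 ± 57.9 CPM (log2 fold change 0.19, edgeR adjusted p = 0.757).

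**Figure D3:**
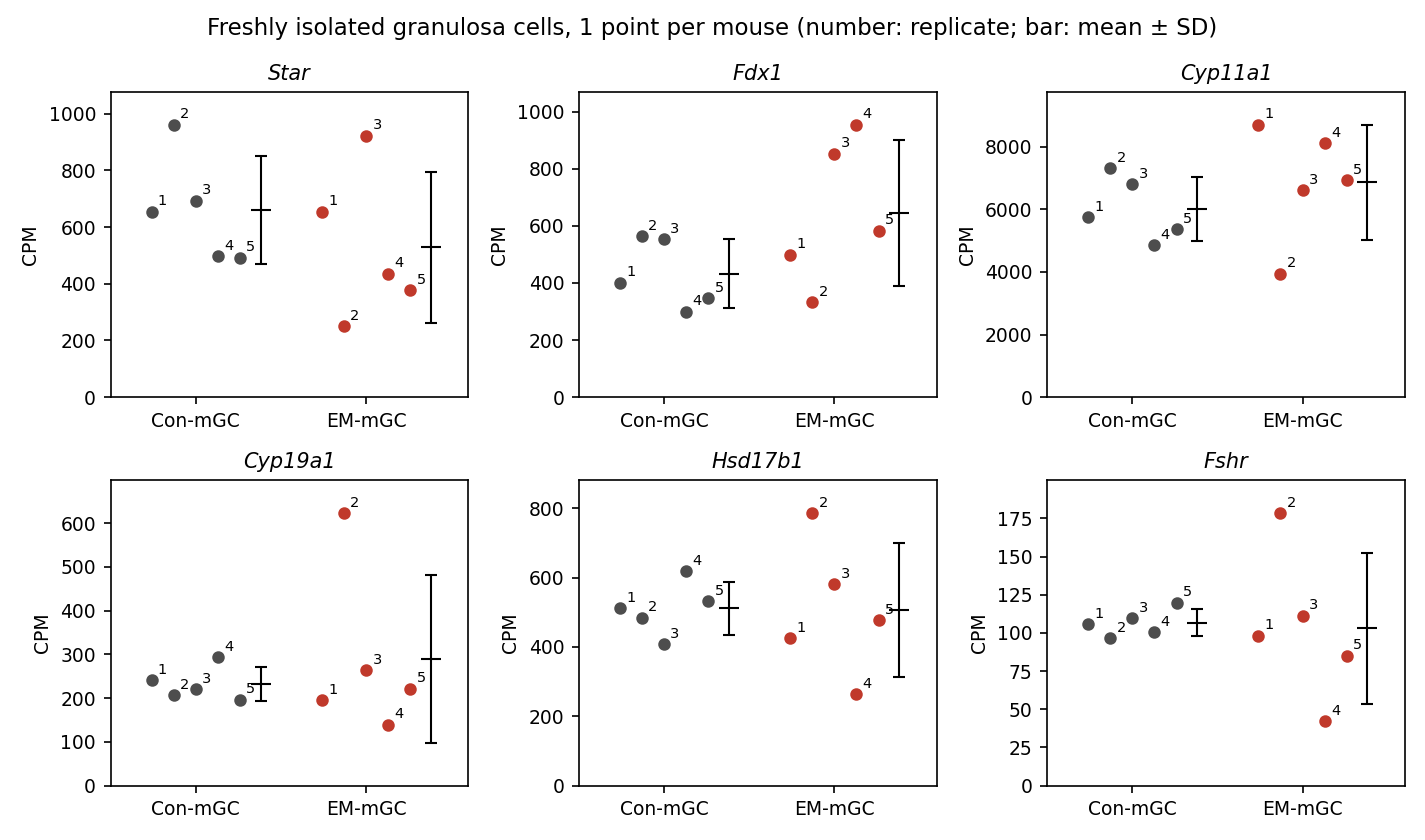
CPM of 6 genes in freshly isolated mGCs, with 1 point per mouse, its replicate number beside it, and the mean ± SD of each group (n = 5) at the side. For Cyp19a1, Hsd17b1 and Fshr the Con mice lie close together and EM-mGC-2 and EM-mGC-4 form the upper and lower ends, at 623 and 139.5 CPM for Cyp19a1.

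The coefficient of variation between mice was larger in EM-mGC than in Con-mGC for 8 of the 10 genes, all but Hsd3b1 and Prlr. The same count was not made over all genes. Over the table, library pairs differed by a chi-square per degree of freedom of 10.21 to 44.71 in Con-mGC and 10.21 to 128.1 in EM-mGC. A wider spread in EM-mGC was thus not shown to be particular to these genes. The coefficient of variation of Cyp19a1 was 66.5% in EM-mGC and 16.5% in Con-mGC, and 25.5% in EM-mGC without EM-mGC-2. That of Fshr was 47.9% and 8.35%, that of Hsd17b1 38.1% and 15.0%, and that of Cyp11a1 26.8% and 16.96%, with 13.0% in EM-mGC without EM-mGC-2. Star varied by 50.1% and 29.0% (17.9% without Con-mGC-2), whereas Prlr varied less in EM-mGC, at 13.3% against 28.2%. These are descriptions of 5 mice each, and the difference in spread was not tested. EM-mGC-2, which held the highest Cyp19a1, Hsd17b1, Cyp17a1, Hsd3b1, Fshr and Lhcgr of all fresh libraries, also held the lowest Star (250.4 CPM) and the lowest Cyp11a1 (3948 CPM). Its summed granulosa markers were the highest of all libraries at 25440 CPM. Its theca, stromal and endothelial markers were the lowest of the fresh libraries at 158.3, 419 and 69.2 CPM. EM-mGC-4, with the lowest Cyp19a1, Hsd17b1 and Fshr of the fresh libraries, held the highest Fdx1, the highest Prlr (514 CPM) and the lowest summed granulosa markers, at 7981 CPM. Its 4 luteal markers summed to 2824 CPM, where Con mice ranged from 583 to 2045 CPM and EM mice from 959 to 3357 CPM. Between the groups, the 5 stromal markers summed to 1054 to 1212 CPM in Con-mGC and 419 to 995 CPM in EM-mGC, the 5 endothelial markers to 126 to 141 CPM and 69.2 to 121.5 CPM, and the 7 leukocyte markers to 167 to 339.6 CPM and 247 to 616 CPM. The part of cell composition in these values was not tested, and fewer cells of a type and less RNA per cell cannot be told apart in such libraries.

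Further genes of the pathway are given from lists chosen with earlier results of these data known. Of 34 other steroid enzymes and carriers, 24 were tested in EM-mGC against Con-mGC and 0 were called, with 2 at an unadjusted p under 0.05 by edgeR; their median log2 fold change was 0.02. The highest among the expressed members was Akr1c18, the enzyme that inactivates progesterone, at 265.5 ± 211 CPM in EM-mGC and 108 ± 106 CPM in Con-mGC (log2 fold change 1.29, standard error 0.83, edgeR adjusted p = 0.627), and the lowest Hsd11b2, which inactivates glucocorticoids, at a log2 fold change of -0.42 (edgeR adjusted p = 0.596). The counts of this list and of the lists that follow are to be read against the 9.44% of all genes with such a p. Of 36 genes of gonadotropin and prolactin signalling, 0 were called and 7 had an unadjusted p under 0.05 by edgeR. They ran from Socs3, a feedback inhibitor of cytokine receptors, at 0.93 (edgeR adjusted p = 0.348) to Rapgef4, a cyclic AMP sensor, at -0.74 (edgeR adjusted p = 0.462). Of 18 regulators of steroidogenic genes 0 were called and 2 had an unadjusted p under 0.05 by edgeR, from Runx2, a factor of luteinizing cells, at 0.61 to Nr0b1, a repressor, at -0.61. Of 9 steroid receptors 0 were called and 4 had an unadjusted p under 0.05 by edgeR, all 4 of them lower in EM-mGC. The lowest was Pgr, the progesterone receptor, at -1.09 (edgeR adjusted p = 0.51). Its level was low and uneven, at 1.45 ± 0.557 CPM in EM-mGC and 3.08 ± 2.14 CPM in Con-mGC (SD, n = 5 each).

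The second comparison asks what 14,15-EET changed in cultured cells of EM mice. Of the 10 genes 7 passed the filter on low counts, and 0 were called by edgeR, where 1.22% of the 15050 genes tested were. At an unadjusted p under 0.05 by edgeR there were 3 (Prlr, Star and Hsd17b1), against 12.4% of all genes. DESeq2 called 0 of the 10, with 341 genes called over the whole table. Of the 10 limma-voom called 1 (Hsd17b1), with 623 genes called over the whole table. With the replicate number as a block 341 genes were called in place of 184, with 0 of the 10 among them. In 2 of the 7 the groups did not overlap, against 17.3% of all genes; 1 of these lay higher in EET (8.06% of all genes) and 1 lower (9.23%). The largest fold change was 1.35-fold (Prlr).

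Prlr was at 24.1, 36.8 and 39.5 CPM in PBS-1 to PBS-3 and at 48.4, 45.3 and 41.7 CPM in EET-1 to EET-3. Every EET library lay above every PBS library, and PBS-1 was low. The log2 fold change of Prlr in EET against PBS was 0.43 (standard error 0.14, 95% interval 0.13 to 0.72, edgeR unadjusted p = 0.00821, adjusted p = 0.192), and 0.25 without PBS-1. Star was at 485, 467 and 446 CPM in the PBS libraries and at 416, 412 and 424 CPM in the EET libraries. All EET values were below all PBS values. The log2 fold change of Star was -0.15 (standard error 0.05, 95% interval -0.26 to -0.05, edgeR adjusted p = 0.202).

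Hsd17b1 was at 119, 133 and 157 CPM in the PBS libraries and at 122, 115 and 107 CPM in the EET libraries. EET-1 lay above PBS-1, so the groups overlapped. The log2 fold change of Hsd17b1 was -0.25 (standard error 0.08, 95% interval -0.43 to -0.06, edgeR adjusted p = 0.235). Testing every gene with at least 1 read gave an edgeR adjusted p of 2.74e-06 for Prlr and 0.00234 for Hsd17b1, and without PBS-1 that of Hsd17b1 was 0.0205, so these calls rest on the choice of filter and libraries. Fshr, the FSH receptor, averaged 5.16 ± 0.415 CPM in PBS and 5.88 ± 0.393 CPM in EET (SD, n = 3 each), a log2 fold change of 0.19 (95% interval -0.09 to 0.48, edgeR adjusted p = 0.582).

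The remaining enzymes stayed close together. Cyp11a1 was at 5243 ± 318 CPM in PBS and 5088 ± 30.5 CPM in EET (log2 fold change -0.04, 95% interval -0.16 to 0.09, edgeR adjusted p = 0.828), and Fdx1 at 553.5 ± 52.8 and 540 ± 21.5 CPM (log2 fold change -0.03, 95% interval -0.18 to 0.12, edgeR adjusted p = 0.892). Hsd3b1, which makes progesterone, was at 2579 ± 337 and 2439 ± 109 CPM (log2 fold change -0.07, 95% interval -0.25 to 0.10, edgeR adjusted p = 0.749). The intervals of all 3 enzymes included 0, and that of Hsd3b1 was the widest.

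Cyp19a1, Cyp17a1 and Lhcgr were not tested, since they had almost no reads in culture. Aromatase had 0, 3 and 9 counts in PBS-1 to PBS-3 and 5, 0 and 2 counts in EET-1 to EET-3. Cyp17a1 had 2 counts in PBS-1 and 0 in the other cultured libraries. Lhcgr had 5, 6 and 11 counts in the PBS libraries and 3, 1 and 4 counts in the EET libraries. All EET values of Lhcgr lay below all PBS values, 8 counts in all against 22, and this difference was not tested. At totals of 21384686 to 29482826 counts per library, the reads of Cyp19a1 and Cyp17a1 were too few to show a fall or a small difference between EET and PBS. No difference was tested for either.

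**Figure D4:**
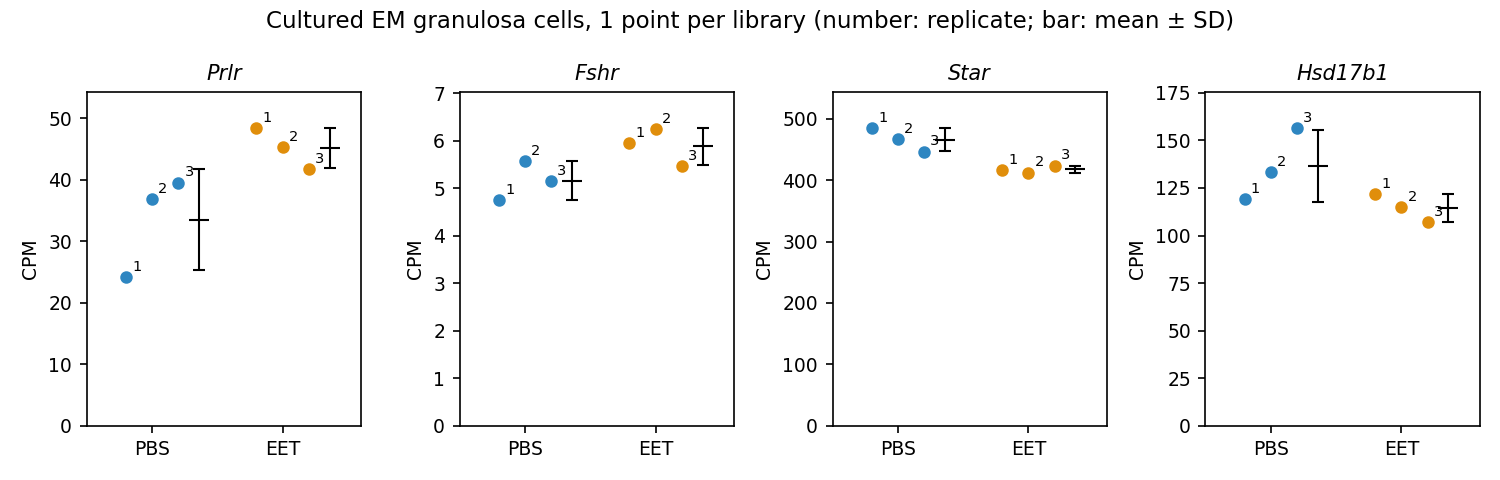
CPM of 4 genes in cultured EM mGCs, with 1 point per library, its replicate number beside it, and the mean ± SD of PBS and EET (n = 3 each). Prlr lies higher and Star lower in every EET library than in any PBS library, while Fshr and Hsd17b1 overlap; none of the 4 passed an adjusted p of 0.05.

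Of the 18 other steroid enzymes and carriers tested in EET against PBS, 0 were called and 3 had an unadjusted p under 0.05 by edgeR, the lowest log2 fold change being that of Cyb5a, a partner of Cyp17a1, at -0.19 (edgeR adjusted p = 0.154). Of the 36 signalling genes 1 rose and 1 fell, where 1.22% of all genes were called. Prkar2b, a regulatory subunit of protein kinase A, rose from 314 ± 24.4 CPM in PBS to 425 ± 22.5 CPM in EET (log2 fold change 0.44, edgeR adjusted p = 0.00611). Pde4b, which breaks down cyclic AMP, fell from 28.7 ± 4.21 to 18.9 ± 0.737 CPM (log2 fold change -0.60, edgeR adjusted p = 0.0114). Among the 17 regulators tested Cebpa, a factor of luteinizing granulosa cells, rose from 157 ± 11.9 to 195.5 ± 10.2 CPM (log2 fold change 0.32, edgeR adjusted p = 0.0236), and 0 fell. Of 8 steroid receptors tested 0 were called and 3 had an unadjusted p under 0.05 by edgeR, against 12.4% of all genes.

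The third comparison sets the cultured PBS libraries beside the freshly isolated cells of EM mice. Culture, the mice, the library preparation and the sequencing run changed together and cannot be told apart, and 69% of the 17301 genes tested were called by edgeR, 37.9% as lower and 31.1% as higher in PBS. Fshr, Prlr, Hsd17b1 and Hsd3b1 were lower in the PBS libraries and Lhcgr, Cyp19a1 and Cyp17a1 had almost no reads there, while Star, Cyp11a1 and Fdx1 were not called. The median log2 fold change of all genes was -0.11 under TMM scaling, and -0.14 and -0.36 under RLE and upper-quartile scaling. The share of called genes that were higher in PBS was 45.1%, 43.7% and 32.6% under these scalings.

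The LH receptor had almost no reads in culture. Lhcgr had 9314 to 17058 counts in each of the 5 EM libraries and 5, 6 and 11 counts in the PBS libraries. In levels this was 600 to 1034 CPM against 0.273, 0.263 and 0.458 CPM. Pooled over the libraries of a group, the level in EM-mGC was 2458 times that in PBS with a 95% interval of 1623 to 3923 from counting error alone. Fshr stood at 98.3, 178, 111, 42.4 and 85.2 CPM in the EM libraries and at 4.75, 5.58 and 5.16 CPM in the PBS libraries, and it was 20.2-fold lower (log2 fold change -4.33, standard error 0.43, edgeR adjusted p = 1.76e-05). Prlr stood between 379 and 514 CPM in the EM libraries and was at 24.1, 36.8 and 39.5 CPM in the PBS libraries, 13.2-fold lower (log2 fold change -3.73, standard error 0.21, edgeR adjusted p = 6.78e-07). No PBS library reached the level of any EM library for Fshr and Prlr, where 34.2% of all genes tested were lower in PBS without overlap. Fshr lay above Lhcgr in every PBS library.

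Aromatase showed a difference of the same order. Cyp19a1 had 2229 to 10272 counts in each EM library and 0, 3 and 9 counts in the PBS libraries, a pooled ratio of 1589 (95% interval 909.5 to 3076, counting error alone). PBS-3 held most of these reads, and without it the ratio was 4011 (95% interval 1372 to 19450) on the 3 counts left. Without PBS-1 it was 1142. Cyp17a1 had 2146 to 4774 counts in each EM library and 2 counts over all PBS libraries, all in PBS-1, a pooled ratio of 6739 with a 95% interval of 1865 to 55650. Without PBS-2 or PBS-3 the ratio was 4383 or 4253. Without PBS-1 Cyp17a1 had 0 counts, and the EM level was at least 3228-fold higher, taking 3 counts over the group as the floor. In EET it had 0 counts, so that the EM level was at least 4793-fold higher against the same floor. Cyp19a1, Cyp17a1 and Lhcgr passed the filter on low counts only through the fresh libraries, so they are described by their counts and no test is given. Of the other 7 genes 4 (Fshr, Prlr, Hsd17b1 and Hsd3b1) were called lower by edgeR, against 37.9% of all genes tested.

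Hsd17b1 was at 426, 785.5, 582, 264 and 478 CPM in the EM libraries and at 119, 133 and 157 CPM in the PBS libraries. All PBS values were below all EM values, and the gene was 3.77-fold lower (log2 fold change -1.91, standard error 0.31, edgeR adjusted p = 0.000366). Hsd3b1 stood between 4336 and 5892 CPM in the EM libraries and at 2221, 2624 and 2891 CPM in the PBS libraries, 2.05-fold lower (log2 fold change -1.04, standard error 0.19, edgeR adjusted p = 0.000862). By the same joined exon length it stayed the most abundant of the 10 genes per kilobase in culture, at 1390 ± 182 CPM per kb in PBS (SD, n = 3). Its place above Cyp11a1 depends on that length here too.

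The first steps of the pathway were not called. Star was at 485, 467 and 446 CPM in the PBS libraries, within the range of 250.4 to 923 CPM in the EM libraries (log2 fold change -0.21, 95% interval -1.02 to 0.60, edgeR adjusted p = 0.625). Cyp11a1 was at 5608, 5091 and 5029 CPM, within the EM range of 3948 to 8704 CPM (log2 fold change -0.41, 95% interval -1.01 to 0.19, edgeR adjusted p = 0.197). Its edgeR adjusted p was 0.0215 without EM-mGC-2. Fdx1 was at 612, 540 and 509 CPM, within the EM range of 332 to 955 CPM (log2 fold change -0.25, 95% interval -0.94 to 0.45, edgeR adjusted p = 0.496). In PBS, as a result, Cyp11a1 (1091 ± 66.2 CPM per kb), Fdx1 (178 ± 17.02) and Star (113 ± 4.70) followed Hsd3b1 in the order of levels, Hsd17b1 (102 ± 14.2) overlapped Star, and Fshr (2.19 ± 0.176) and Prlr (2.18 ± 0.536) came next, with overlapping ranges. In EET the same genes had levels of 1059 ± 6.36, 174 ± 6.92, 101.5 ± 1.43, 85.6 ± 5.54, 2.49 ± 0.166 and 2.94 ± 0.216 CPM per kb.

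Other cell types also differed between fresh and cultured libraries. The 6 theca markers summed to 158 to 314 CPM in EM-mGC and 623 to 818 CPM in PBS, where Acta2, an actin of smooth muscle that theca cells share, made up most of the sum at 625 CPM on average. Insl3, the theca hormone, was at 3.36 CPM in EM-mGC and 0.193 CPM in PBS. The granulosa markers summed to 7981 to 25440 CPM in EM-mGC and 8370 to 9273 CPM in PBS. Of the 10, 8 were called lower, against 37.9% of all genes tested, and among them Amh passed the filter only through the fresh libraries. The 4 luteal markers summed to 959 to 3357 CPM in EM-mGC and 3839 to 4757 CPM in PBS, where Parm1 rose from 76.8 to 1763 CPM while Akr1c18 (265.5 to 1.74 CPM) and Ptgfr (202 to 6.96 CPM) fell; Sfrp4, at 1771 and 2546 CPM, was not called. Leukocyte markers summed to 247 to 616 CPM in EM-mGC and 15.1 to 18.1 CPM in PBS, with S100a8 and S100a9 at 0 in every cultured library, and Oosp1 of the oocyte and Hbb-bs of red blood cells were at 0 too. The part of these cells in the values of the 10 genes was not tested.

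Among the lists, 6 of the 23 other steroid enzymes and carriers tested rose in PBS against EM-mGC and 12 fell (edgeR), with a median log2 fold change of -0.51. Of those that fell, Hsd17b2, Cyp11b1, Cyp7b1, Hsd11b1 and Fdx2 passed the filter on low counts only through the fresh libraries. The same holds for Nr0b1 of the regulators and Pgr of the steroid receptors counted below, so the calls of these genes are not read as tests. Over all genes tested 31.1% rose and 37.9% fell, and the counts of every list are to be read against these shares. Here and in the next list, leaving out genes whose mean lay under 1 log2 CPM, the largest differences were those of Hsd17b2, which oxidizes estradiol and was at 5.13 ± 2.90 CPM in EM-mGC and at 0 in the PBS libraries, Akr1c18 (265.5 against 1.74 CPM, log2 fold change -7.28), Hsd11b2 (52.5 against 1.09 CPM, log2 fold change -5.59) and Hsd17b7 (329 against 78.4 CPM, log2 fold change -2.09). Of 36 signalling genes 14 rose and 14 fell. The largest differences were those of the cyclic AMP sensors Rapgef4 (70.5 against 0.705 CPM, log2 fold change -6.61) and Rapgef3 (log2 fold change -3.01), the phosphodiesterase gene Pde7b (log2 fold change -3.63) and Socs2, a target of prolactin signalling (log2 fold change -2.94). Of 18 regulators 5 rose and 8 fell. Cebpb, a factor induced by the LH surge, rose 8.37-fold and Creb3l1 9.71-fold, while Nr5a2, a nuclear receptor that binds the AAGGTCA letters, fell from 791 ± 271 CPM in EM-mGC to 106 ± 2.02 CPM in PBS (log2 fold change -2.92, edgeR adjusted p = 1.33e-05), and Gata6 fell too (log2 fold change -1.60). Of 9 steroid receptors 2 rose and 5 fell. The progesterone membrane components Pgrmc1 and Pgrmc2 rose (log2 fold changes 1.67 and 1.66), and the estrogen receptor gene Esr1 fell (-1.66).

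Ratios of 2 genes within a library do not depend on scaling between libraries. The log2 ratio of Lhcgr to Fshr counts was 2.80 ± 0.40 in Con-mGC and 3.12 ± 0.52 in EM-mGC (SD, n = 5 each), with overlapping ranges, and it was -4.01 ± 0.47 in PBS and -5.89 ± 1.18 in EET (SD, n = 3 each). The receptor that outnumbered the other in every fresh library was thus the rarer one in every cultured library, though the EET values rest on 1 to 4 counts of Lhcgr. The log2 ratio of Star to Cyp19a1, which sets the entry of the pathway against its estrogen end, was 1.48 ± 0.53 in Con-mGC and 0.93 ± 1.32 in EM-mGC. EM-mGC-2 alone lay below 0, at -1.31, and the other EM mice lay between 0.77 and 1.80, within the Con range of 0.76 to 2.22. The log2 ratio of Cyp11a1 to its partner Fdx1 was 3.83 ± 0.17 in Con-mGC, 3.46 ± 0.46 in EM-mGC, 3.25 ± 0.06 in PBS and 3.24 ± 0.06 in EET.

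**Figure D5:**
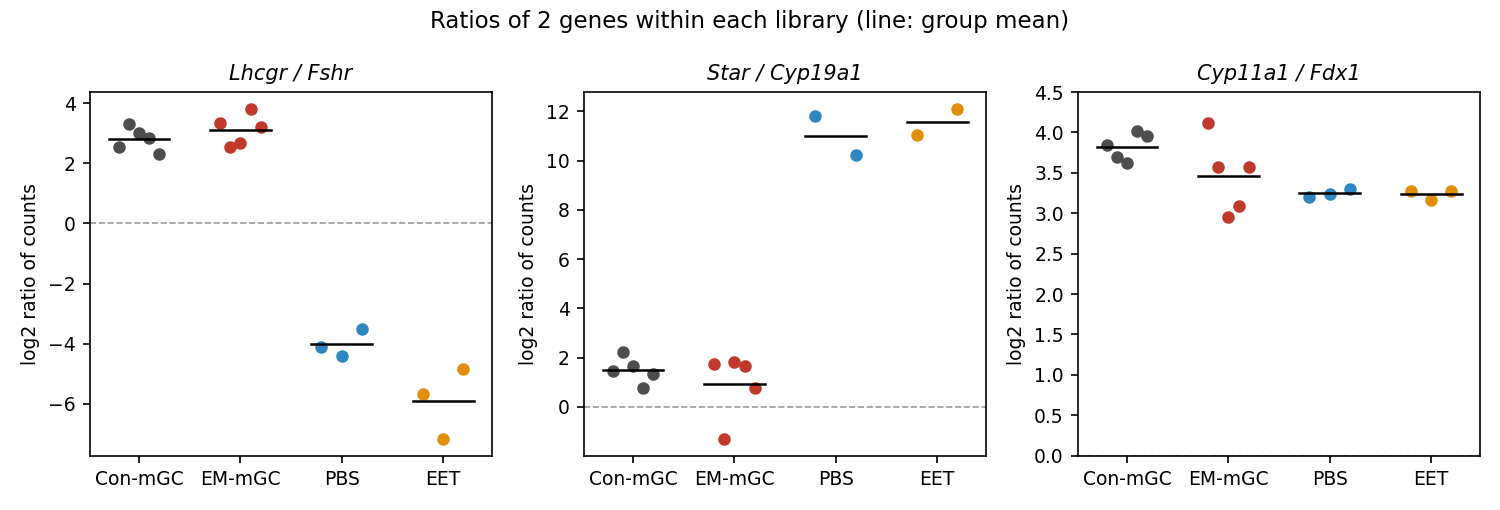
Log2 ratio of the counts of 2 genes within each library (vertical axis), with 1 point per library and a line at the mean of each group; PBS-1 and EET-2 had no Cyp19a1 count and have no Star to Cyp19a1 point. Lhcgr over Fshr changes sign between fresh and cultured libraries, from a mean of 3.12 in EM-mGC to -4.01 in PBS, whereas Cyp11a1 over Fdx1 stays between 2.95 and 4.12 throughout.

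The genes most like 4 of the members were sought among 12812 expressed genes, by the root mean square difference of centred log2 levels over the 16 libraries. For Cyp19a1 they were Cyp17a1 (difference 0.41), Serpina3a (0.51) and Comp (0.59), and for Lhcgr they were Serpina3a (0.75), Hbb-bt (0.82) and Cyp19a1 (0.83). Hbb-bt encodes a globin of red blood cells and had 0 reads in culture. For Fshr they included the transporter genes Slc26a7 (0.26) and Slc38a5 (0.27), and for Star they were Ets1 (0.24), Nes (0.31) and Synpo2 (0.32). These distances are set mainly by the step between fresh and cultured libraries and are given as a description.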

How the data were processed

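RNA of mGCs was sequenced by the authors on an Illumina NovaSeq (150 bp, both ends) from stranded poly(A) libraries. The submitters' processing notes name fastp, HISAT2, StringTie and the build GRCm39, without versions. The deposited counts are labelled as those of featureCounts. The deposited tables hold raw counts per Ensembl gene for 57010 genes, with each library in its own column and no normalization. How the counting used strand, and what was done with reads that fit more than 1 gene, is not given in the sources used here. No column was left unused (0 columns). No row was a total or unassigned class.

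Groups came from the labels. Each comparison had a fit of its own. Genes were kept by edgeR's filterByExpr, scaled by TMM and compared with the quasi-likelihood test (edgeR 4.0.16, R 4.3.3) with Benjamini-Hochberg adjustment over all genes tested, and called at an adjusted p under 0.05. CPM levels used TMM over all 16 libraries, so a fold of mean CPM can differ slightly from the fitted fold. Exon lengths, with all annotated exons of a gene joined, came from GENCODE M21 (all 10 genes matched). Intervals of log2 fold changes (95%) used the standard error and the t distribution of the test. Pooled ratios have 95% intervals and a floor of 3 counts that cover counting error only. Replicate libraries were further apart than sampling noise (chi-square per degree of freedom at least 2.79). The steps were tested on simulated data. The alternatives were DESeq2 1.42.0, limma 3.58.1 (voom with sample quality weights), RLE and upper-quartile scaling, other filters, a minimum fold change (1 on the log2 scale), the replicate number as a block, all libraries in 1 fit, and each library left out.

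The genes and lists were chosen with earlier results of these data known. All 10 genes are named in every comparison. Of each list, counts are given with at most the 4 called genes of the largest log2 fold change and a mean of at least 1 log2 CPM, or, where none was called, the highest and the lowest. The 3 genes most like a member were named for Cyp19a1, Star, Fshr and Lhcgr. Of the genes these rules name, 2 are not reported here.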

Additional observations from a re-analysis of the deposited data

Results flagged for a closer look

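Cyp19a1 in EM-mGC-2 was at 622.7 CPM, far above the other 4 EM mice, of which the next was at 264.7 CPM. The gap took 0.741 of the range of the group, over Dixon's critical value of 0.71 for 5 samples. It was the only flag among the 26 group values tested (10 genes and 3 ratios in Con-mGC and EM-mGC), where chance flags about 1 in 20. Without this mouse the log2 fold change of Cyp19a1 in EM-mGC against Con-mGC was -0.18 in place of 0.31.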

How the results depend on the processing

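Of the alternatives tried on the fold changes of the 10 genes, 423 kept the direction and the side of the threshold, 16 reversed the direction and 6 brought a call. The 423 include 16 settings each for Cyp19a1, Cyp17a1 and Lhcgr in PBS against EM-mGC, for which no test is given. They also include the fold change minimum, which reused the main fit, so that no direction could turn under it. In EM-mGC against Con-mGC the count of called genes over the whole table was 0 in the main test, 113 with DESeq2, 224 with limma-voom, 4 without a filter on low counts and 2 with the replicate block, and 0 to 46 with a library left out (46 without Con-mGC-3). None of the 10 genes was called under any of these. Directions turned with limma-voom for Hsd3b1 (-0.0259) and Cyp19a1 (-0.0543). With a library left out the log2 fold change ran from -0.18 (without EM-mGC-2) to 0.48 for Cyp19a1, from -0.23 to 0.14 for Hsd17b1 (above 0 without Con-mGC-4, EM-mGC-1, EM-mGC-4 and, at 0.0012, EM-mGC-5) and from -0.35 to 0.14 for Fshr (above 0 without EM-mGC-4 and, at 0.007, EM-mGC-5). In EET against PBS the count of called genes was 184 in the main test, 341 with DESeq2, 662 without a filter, 9 with the fold change minimum, 341 with the replicate block, 623 with limma-voom and 48 to 436 with a library left out (48 without EET-3, 436 without PBS-2). Of the 10 genes 2 were called without a filter (Prlr and Hsd17b1) and 1 with limma-voom (Hsd17b1), and 0 to 1 with a library left out (Hsd17b1 without PBS-1). Directions turned for Fdx1 with limma-voom (0.0223), and with a library left out the values ran from -0.0922 to 0.0482 for Fdx1 and from -0.0715 to 0.0145 for Cyp11a1 (above 0 without PBS-1) and from -0.17 to 0.0095 for Hsd3b1 (above 0 without PBS-3). In PBS against EM-mGC the fold change minimum left 7214 of 11937 called genes, and at least 10 counts in every library left 4 members called, since Cyp19a1, Cyp17a1 and Lhcgr then dropped out. With a library left out 7 to 8 of the 10 genes were called, counting these 3, which passed the filter only through the fresh libraries, and the eighth was Cyp11a1 without EM-mGC-2, which limma-voom also called (adjusted p = 0.0081). The same fits called 10792 to 12332 genes over the whole table. These member counts, and that of the replicate block below, are to be read against the 69% of all genes tested that the main fit called. Directions turned for Fdx1 with the replicate block (0.0668) and for Star with limma-voom (0.0555), and with a library left out Star ran from -0.41 to 0.0875 (above 0 without EM-mGC-3). Except where a filter shows it, the cause was not tested. Levels in CPM moved by more than 1 SD in 15 of 80 values under other scalings. The methods speak of paired replicates without saying that equal numbers are the pairs, and whether they are is not settled: same-numbered EET and PBS libraries correlated at 0.0835, 0.152 and -0.0411 in their deviations from the group means, and the replicate block called 0 of the 10 genes in EM-mGC against Con-mGC and in EET against PBS and 7, those 3 among them, in PBS against EM-mGC. The coefficients of variation and pooled ratios with a library left out were added after seeing the data.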
